A study of Gallus gallus with 12 samples.

Results

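Cytokines are small secreted proteins by which immune cells, connective tissue cells and muscle cells signal to each other, chemokines are the cytokines that direct the movement of leukocytes, and both act through receptors on the cell surface. The genes described here are those whose symbol in the array's annotation names an interleukin, a chemokine, a colony-stimulating factor or an interferon, the receptor of one of these, or avidin (AVD), a biotin-binding protein that chicken cells also make in injured and inflamed tissue. The rule took 78 rows of the value table, which stood for 77 genes among the 11528 genes with a symbol. IL4R had more than 1 row and was represented by the brighter one. Of the 77 genes 30 encode ligands, 45 encode receptors, and AVD and IL4I1 (an enzyme of amino acid breakdown induced by IL4) encode neither. Membership rested on the symbol, with AVD added by name, and the rule was set with earlier results of these data known.

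The levels were measured in Pectoralis major, the large breast muscle, of 12 Ross 708 broilers labelled male, all of 1 flock, whose live weight averaged 3.7 kg. The myopathy group comprised 6 birds with the white striping and wooden breast phenotype, in which pale lines run along the fibres and the fillet is hard, and the normal group comprised 6 birds with unaffected fillets. The labels name no transgene and no treatment, and each array held the RNA of 1 bird, so n = 6 per group throughout. The arrays held 20804 rows, each a transcript cluster with a log2 level, and array medians ran from 4.05 to 4.16. Birds are numbered within each group in the order of deposition, which pairs no birds.

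On 3 of the 6 normal arrays (birds 1, 4 and 5) HINTW, a transcript of the female W chromosome, stood between 8.51 and 9.41, against 2.46 to 2.99 on the other 9 arrays, although all birds were labelled male. The differences of many members are therefore also given without those 3 arrays, which leaves 6 myopathy and 3 normal birds. The members AVD, IL6ST, IL7R, IL11RA and CCL19 lie on chromosome Z in the gene table of assembly GRCg7b, and sex can affect the dose of Z-linked genes in birds. The tissue label was checked against 7 measured transcripts of fast muscle fibres, whose summed linear level was 20166 to 22121 in myopathy muscles and 19185 to 22537 in normal muscles.

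In skeletal muscle, resident macrophages, fibroblasts and vessel cells are the usual sources of chemokines after injury, and the fibres themselves make IL15 and IL6. Interleukins of the IL6 and common gamma chain families and interferons signal through JAK kinases and STAT factors, whereas IL1B and IL18 signal through MYD88 to NF-kappa B and chemokine receptors signal through G proteins. A further class of receptors binds ligand without passing on the usual signal. IL1R2 and IL13RA2 are such decoys in mammals, IL22RA2 is a secreted one, and the atypical chemokine receptors ACKR2, CXCR7 (also named ACKR3) and ACKR4 take up chemokines and carry them to degradation in mammals.

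Many of these genes gave a signal no higher than that of genes muscle does not use, and how many depended on where the ceiling was set. The background ceiling was set at 3.91, the 90th percentile of the levels of 43 measured genes expected to be absent from muscle, such as those of egg white, pancreas and retina. The highest of the 43 stood at 5.26, so a member above the ceiling can still lie within the range of such genes. A gene was called near background when the mean of each group lay at or below that ceiling. By this measure 52 of the 77 members were near background, comprising 21 of 30 ligands, 30 of 45 receptors and IL4I1. Of all rows on the array 46.1% had a mean over all 12 arrays at or below the ceiling. That measure is not the same, and by it IL13RA1, CSF2RA and CCL19 lay under the ceiling as well. With the ceiling at the 75th percentile of the same genes 35 of 77 members were near background, and with the highest HINTW level of the arrays without W transcripts, 2.99, there were 32 of 77. The 25 members above background comprised 9 ligands, 15 receptors and AVD. Of these 25, IL1R1, IL13RA1 and CSF2RA stood above the ceiling only through the myopathy group and CCL19 only through the normal group. The members nearest to the ceiling were IL10RA with a mean of 3.89 in myopathy and 3.90 in normal muscles just below it, and CSF2RA with 3.98 in myopathy and 3.61 in normal muscles just above it. A level depends on the probes of its row, so levels are set here against the ceiling and between groups, not between genes.

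**Figure D1:**
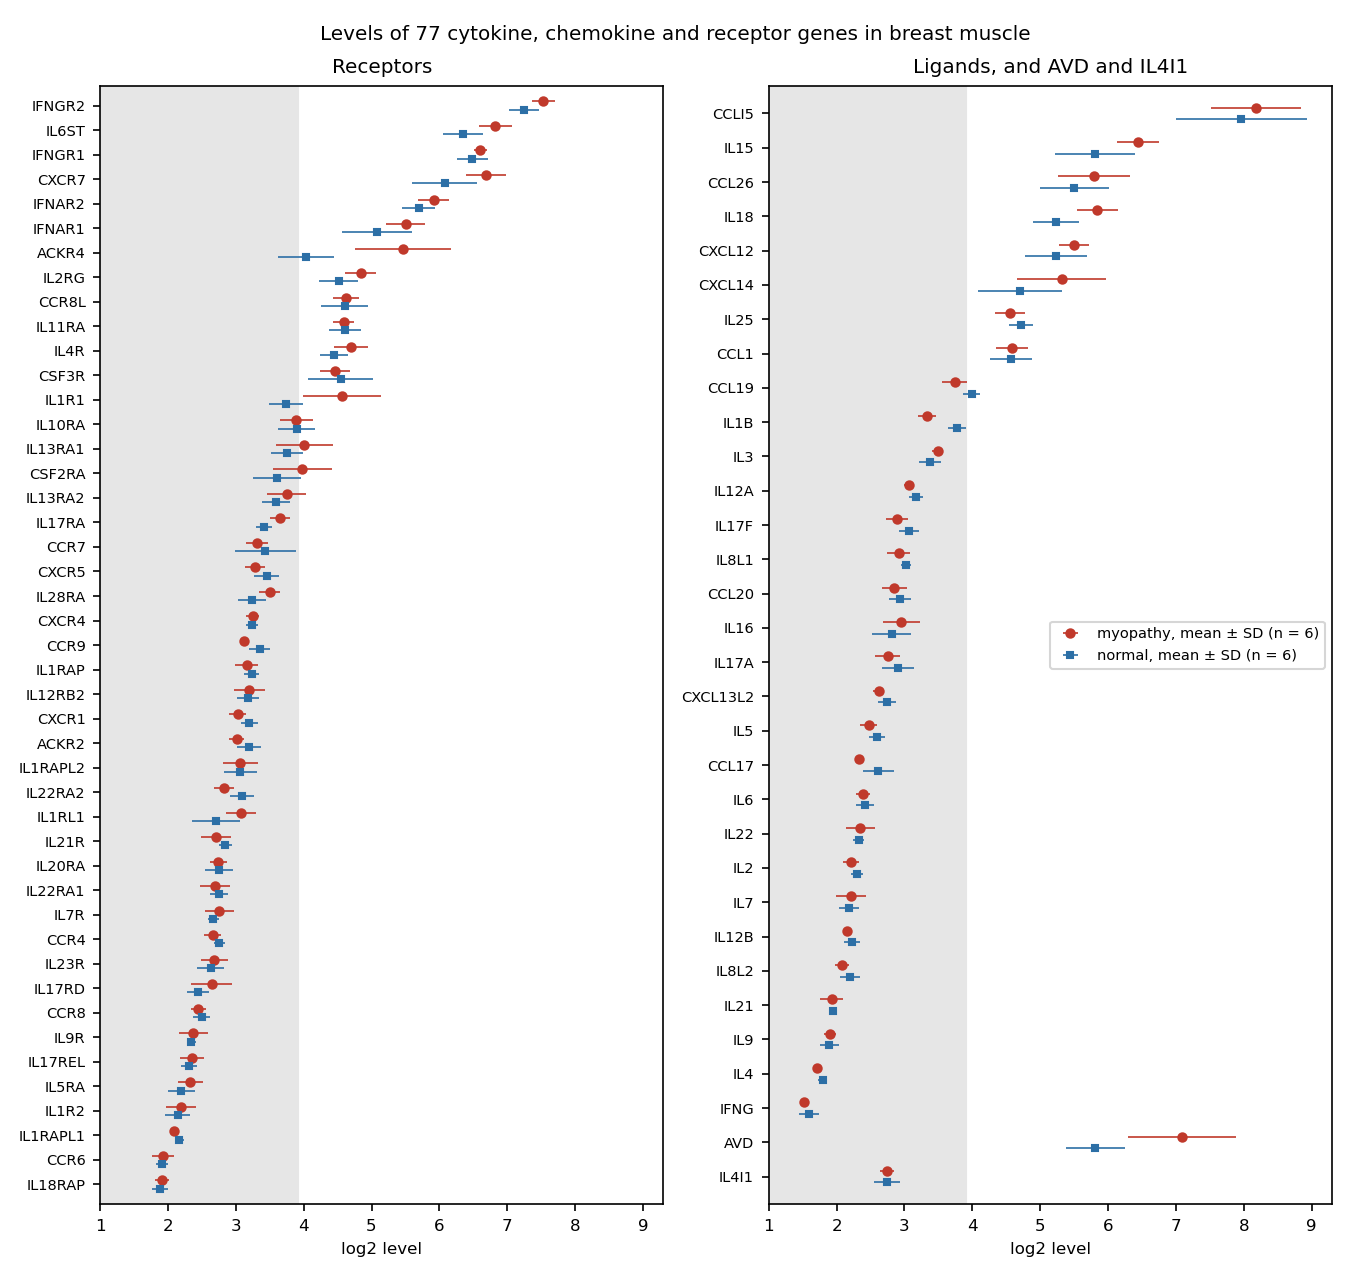
Log2 levels (x axis) of the 30 ligands and 45 receptors, with AVD and IL4I1, as mean ± SD of 6 myopathy and 6 normal muscles per gene, and a shaded area that ends at the background ceiling of 3.91. Of the 77 genes 52 have both group means at or below the ceiling, and the birds of the 2 groups overlap for 73 of 77 genes.

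The ligands near background include the classical messengers of acute inflammation and of T cells. IFNG, the activating interferon of T and NK cells, had 1.43 as its lowest, 1.53 as its median and 1.59 as its highest level in myopathy muscles, against 1.33, 1.64 and 1.73 in normal muscles. The groups overlapped fully, with a difference of -0.07 and an adjusted p of 0.62 by limma. IL6 averaged 2.39 in myopathy and 2.43 in normal muscles. The chemokines IL8L1 and IL8L2 averaged 2.91 and 2.08 in myopathy muscles, against 3.02 and 2.20 in normal muscles. IL2, IL4, IL5, IL12A, IL12B, IL17A, IL17F, IL21 and IL22 were near background as well. At such levels an array cannot tell an absent transcript from a rare one. The other ligands near background were IL1B, IL3, IL7, IL9, IL16, CCL17, CCL20 and CXCL13L2. Receptors near background included those of lymphocyte subsets, CCR4, CCR6, CCR8, CXCR5, IL12RB2 and IL23R, along with CXCR1, IL5RA, IL13RA2, IL17RD, IL17REL, IL20RA, IL22RA1 and the synaptic proteins IL1RAPL1 and IL1RAPL2. Over the 52 members near background the differences ran from -0.44 to 0.37.

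In limma's fit over all rows with Benjamini-Hochberg adjustment, 2 of the 77 members passed an adjusted p of 0.05, ACKR4 higher and IL1B lower in myopathy muscle. Over all rows 238 passed, or 1.14%, of which 0.63% were higher and 0.514% lower. The 2 calls, 1 ligand of 30 and 1 receptor of 45, are 2.6% of the members, which is near that background for a number so small.

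ACKR4, the atypical receptor that takes up CCL19, CCL21 and CCL25 in mammals, rose in myopathy muscle. Its level in myopathy muscles was 4.76 at the lowest, 5.23 at the median and 6.70 at the highest, against 3.54, 3.95 and 4.74 in normal muscles. All 6 myopathy birds lay above all 6 normal birds, with myopathy bird 5 and normal bird 5 almost touching and myopathy bird 4 well above the rest. The means were 5.46 ± 0.71 in myopathy and 4.03 ± 0.41 in normal muscles (SD, n = 6 each). The normal mean lay just above the background ceiling of 3.91, and normal birds 1, 2 and 6 lay under it, at 3.54, 3.83 and 3.83. The difference was 1.43 ± 0.30 (SE, 95% interval 0.79 to 2.06), a 2.69-fold higher level, with an adjusted p of 0.0425 by limma. Without the 3 arrays with W transcripts the difference was 1.56 and the adjusted p 0.114. Without normal bird 2 and myopathy bird 4 it was 1.14 with an adjusted p of 0.0961.

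IL1B, the fever-inducing cytokine that activated macrophages release, gave a lower signal in myopathy muscle, at a level near background in both groups. Myopathy muscles had 3.10 at the lowest, 3.35 at the median and 3.50 at the highest, against 3.57, 3.79 and 3.91 in normal muscles. The groups lay apart by a narrow gap, and every bird of both groups lay at or below the ceiling. Means were 3.33 ± 0.13 in myopathy and 3.77 ± 0.13 in normal muscles, and the difference was -0.44 ± 0.08 (95% interval -0.62 to -0.26), with an adjusted p of 0.0383 by limma. Without the 3 arrays with W transcripts the difference was again -0.44, with an adjusted p of 0.124. The genes expected to be absent from muscle also leaned to lower values in myopathy muscles, with a median difference of -0.09 and 38 of 43 negative. Dim rows in general leaned the same way, since 32.9% of rows at or below the ceiling had a positive difference, against 43.9% of all rows. The part of this lean in the difference of IL1B was not tested.

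The adjusted p of both calls depended on single birds, while the differences stayed about as large. Over fits that left out each array in turn the difference was 1.18 to 1.57 for ACKR4 and -0.48 to -0.40 for IL1B, with unadjusted p values up to 0.000962 and 0.000464. Leaving out each array in turn kept ACKR4 past the threshold in 4 of 12 fits and IL1B in 4 of 12, with adjusted p values up to 0.093 for each. Both were lost when normal bird 1, 2, 3 or 4 or myopathy bird 2, 3, 4 or 6 was left out. In those fits 1 to 91 rows passed in place of 238, and an adjusted p also depends on the p-values of all other rows. The unadjusted p by limma was then 0.000161 to 0.000962 for ACKR4, against 0.000298 with all arrays. For IL1B it was 0.00032 to 0.000464, against 0.000144 with all arrays.

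**Figure D2:**
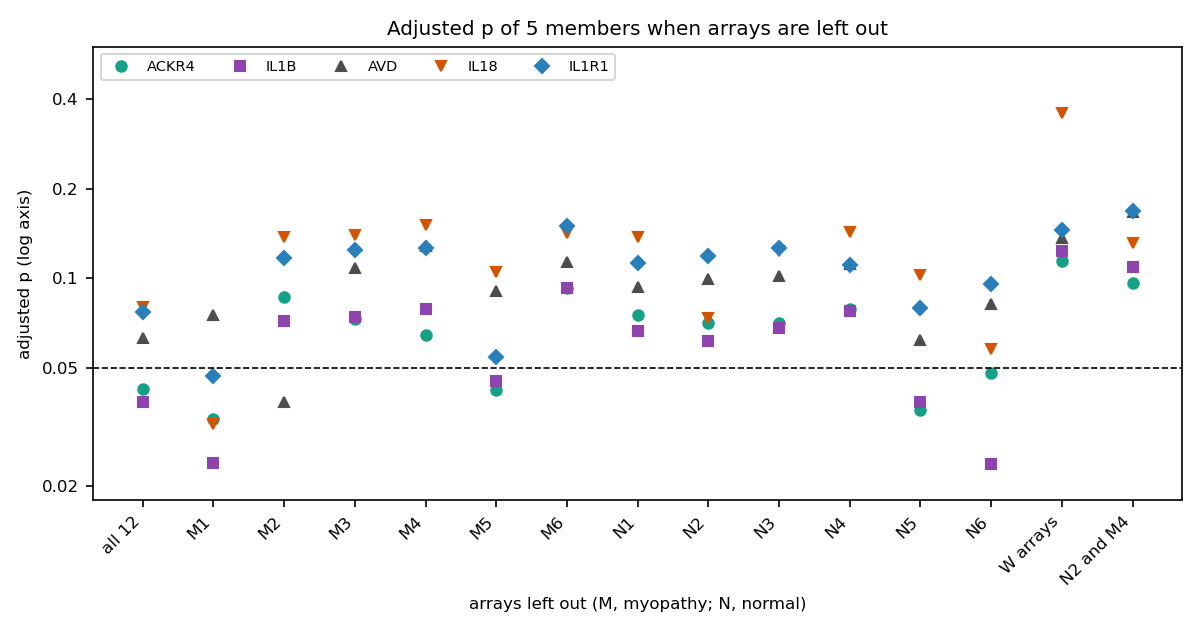
Adjusted p from limma (y axis, log scale) of ACKR4, IL1B, AVD, IL18 and IL1R1 with all 12 arrays, without each array in turn (M, myopathy; N, normal), without the 3 arrays with W transcripts, and without N2 and M4 together; the dashed line marks 0.05. With all 12 arrays ACKR4 and IL1B lie under the line and the other members above it.

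CCL21 and CCL25 are not among the members. The related members CCL19, CCR7, CCR9 and ACKR2 lay near background or little above it. CCL19, one of the ligands that ACKR4 takes up in mammals and a signal that draws T cells and dendritic cells to lymphoid tissue, had a lowest level of 3.58, a median of 3.70 and a highest of 4.06 in myopathy muscles, against 3.80, 3.999 and 4.17 in normal muscles. The groups overlapped, and the difference was -0.25 ± 0.09 with an adjusted p of 0.151. CCR7, the signalling receptor of CCL19, averaged 3.31 in myopathy and 3.43 in normal muscles, near background. CCR9, a receptor of gut-homing T cells in mammals, was near background too, with 3.12 ± 0.06 in myopathy and 3.35 ± 0.15 in normal muscles. Its groups did not overlap, yet the difference of -0.23 had an adjusted p of 0.118 by limma. Without the arrays with W transcripts the difference of CCR9 was -0.17 with an adjusted p of 0.307. ACKR2, which takes up inflammatory CC chemokines in mammals, averaged 3.02 in myopathy and 3.20 in normal muscles, with an adjusted p of 0.262.

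CXCR7, the atypical receptor of CXCL12 in mammals, stood well above background. Its levels in myopathy muscles were 6.31, 6.75 and 7.05 (lowest, median and highest), against 5.44, 6.09 and 6.64 in normal muscles, and 4 of 6 myopathy birds lay above every normal bird. The difference was 0.61 ± 0.21 (95% interval 0.17 to 1.05) with an adjusted p of 0.116. The normal birds with W transcripts averaged 5.74 and the other normal birds 6.41, and without the arrays with W transcripts the difference was 0.28. CXCL12, which holds stem cells and leukocytes in tissue, averaged 5.49 ± 0.22 in myopathy and 5.23 ± 0.46 in normal muscles, and its signalling receptor CXCR4 averaged 3.25 ± 0.10 in myopathy and 3.24 ± 0.09 in normal muscles, near background. The difference of CXCL12 was 0.26 with an adjusted p of 0.424, and 0.60 with an adjusted p of 0.144 without the arrays with W transcripts.

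CXCL14, a chemokine of epithelia and connective tissue, had levels of 4.37, 5.27 and 6.22 in myopathy muscles, against 4.04, 4.72 and 5.51 in normal muscles. The groups overlapped broadly, and the difference of 0.62 ± 0.32 (95% interval -0.07 to 1.32) had an adjusted p of 0.273. Without the arrays with W transcripts it was 0.34 with an adjusted p of 0.663 by limma. The CC chemokines CCLI5, CCL26 and CCL1 lie next to each other in the gene table, where CCL1 also carries CCLi5 as a synonym, so that probes for related copies may share signal and their separate values are uncertain. CCLI5 had levels of 7.44, 8.16 and 9.24 in myopathy muscles, against 6.64, 8.29 and 8.95 in normal muscles. The birds of both groups were spread over the same range, the difference being 0.21 ± 0.42 with an interval of -0.68 to 1.11 and an adjusted p of 0.792, and it was -0.05 without normal bird 2. CCL26 had levels of 5.33, 5.66 and 6.75 in myopathy muscles, against 4.75, 5.46 and 6.27 in normal muscles, with a difference of 0.29 and an adjusted p of 0.537. Without the arrays with W transcripts the difference of CCL26 was 0.63 with an adjusted p of 0.292 by limma. CCL1 averaged 4.59 in myopathy and 4.56 in normal muscles.

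Among the IL1 family, IL18 and IL1R1 were the members above background. IL18, a cytokine that drives IFNG production, had levels of 5.24, 5.92 and 6.07 in myopathy muscles, against 4.87, 5.17 and 5.67 in normal muscles. Every myopathy bird but bird 1 lay above every normal bird. The difference was 0.61 ± 0.17 (95% interval 0.24 to 0.97), with an adjusted p of 0.0801, and without myopathy bird 1 it was 0.73 with an adjusted p of 0.0323. Without the arrays with W transcripts it was 0.34 with an adjusted p of 0.36, the normal birds with W transcripts averaging 4.97 and the other normal birds 5.50.

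IL1R1, the signalling receptor of IL1B, had levels of 3.92, 4.55 and 5.43 in myopathy muscles, against 3.45, 3.71 and 4.02 in normal muscles. Of the 6 myopathy birds 4 lay above every normal bird, and the normal mean of 3.74 ± 0.24 lay under the background ceiling. The difference from the myopathy mean of 4.56 ± 0.57 was 0.82 ± 0.23 (95% interval 0.33 to 1.31), with an adjusted p of 0.0772, and 1.02 with an adjusted p of 0.145 without the arrays with W transcripts. Without myopathy bird 1 it was 0.94 with an adjusted p of 0.047. IL1RL1, the IL33 receptor in mammals and a neighbour of IL1R1 in the gene table, averaged 3.08 in myopathy and 2.71 in normal muscles, near background, with an adjusted p of 0.188. The coreceptors IL1RAP and IL18RAP and the decoy IL1R2 were near background, with differences of -0.08, 0.02 and 0.05.

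**Figure D3:**
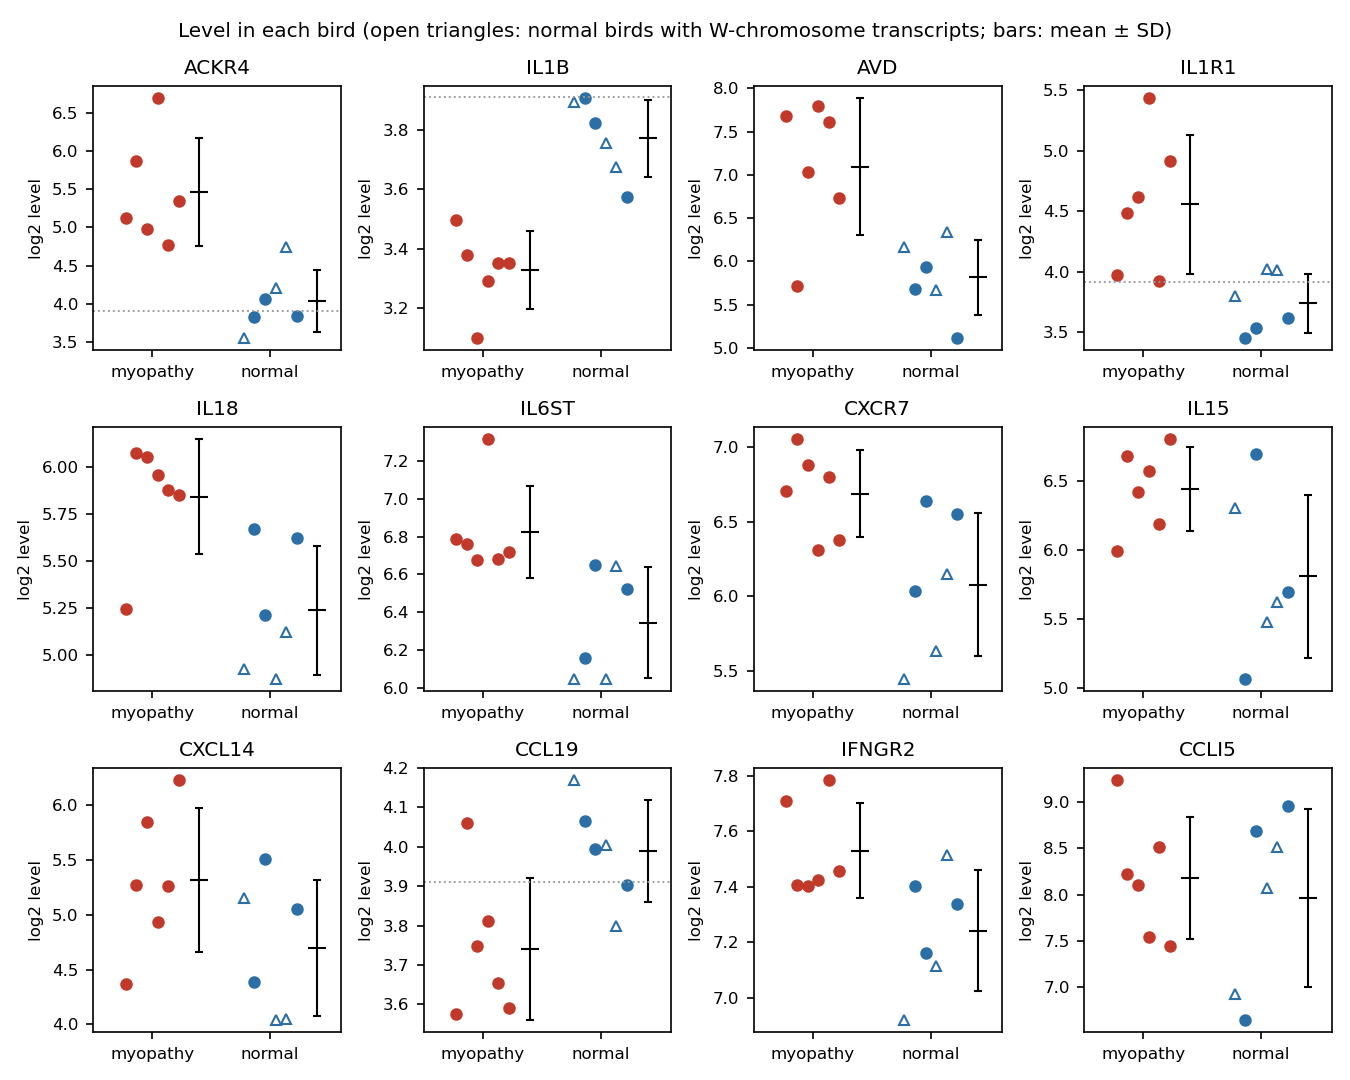
Log2 level (y axis) of 12 members in each of 6 myopathy and 6 normal birds, with the mean ± SD beside each group; open triangles are the normal birds with W transcripts, and the dotted line, where in range, is the background ceiling. The groups lie apart for ACKR4, IL1B and IL6ST and overlap for the other 9.

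IL15 and the receptors of the common gamma chain family were measured above background in part. IL15, a cytokine of muscle fibres and myeloid cells that sustains NK and memory T cells, had levels of 5.99, 6.49 and 6.80 in myopathy muscles, against 5.06, 5.66 and 6.69 in normal muscles. Normal birds 1 and 3 reached the range of the myopathy birds, and the difference of 0.63 ± 0.24 (95% interval 0.11 to 1.15) had an adjusted p of 0.15 by limma. Without the arrays with W transcripts the difference of IL15 was again 0.63, with an adjusted p of 0.317. IL2RG, the shared gamma chain itself, averaged 4.84 ± 0.23 in myopathy and 4.52 ± 0.29 in normal muscles, with a difference of 0.32 and an adjusted p of 0.195. IL4R had a difference of 0.26 in its brighter row and -0.02 in its dimmer one, the adjusted p of the brighter being 0.256. IL7R, IL9R and IL21R were near background, as were the ligands IL2, IL4, IL7, IL9 and IL21.

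IL6ST (gp130), the shared signalling chain of the IL6 family, had levels of 6.68, 6.74 and 7.31 in myopathy muscles, against 6.05, 6.34 and 6.65 in normal muscles. Its groups did not overlap, but the highest normal and the lowest myopathy birds nearly met. The difference was 0.48 ± 0.14 (95% interval 0.17 to 0.79), a 1.39-fold higher level, with an adjusted p of 0.0925, and 0.38 with an adjusted p of 0.255 without the arrays with W transcripts. IL11RA, a partner of IL6ST, averaged 4.59 in myopathy and 4.60 in normal muscles. Of the remaining members above background, CSF2RA (a receptor chain for the growth factor of granulocytes and macrophages) had a difference of 0.37 with an adjusted p of 0.297, and CSF3R (the receptor of the granulocyte growth factor) had one of -0.08 with all arrays and 0.23 without the arrays with W transcripts. The IL13 receptor chain IL13RA1 had a difference of 0.25, the chemokine receptor CCR8L one of 0.03, and IL25, a cytokine of the IL17 family, one of -0.16.

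The chains of the type I and type II interferon receptors were above background, and none passed the adjusted threshold. IFNGR2 had levels of 7.40, 7.44 and 7.79 in myopathy muscles, against 6.92, 7.25 and 7.52 in normal muscles, with a difference of 0.29 ± 0.11 and an adjusted p of 0.155. IFNGR1, the ligand-binding chain of the same receptor, had 6.45, 6.63 and 6.72 in myopathy muscles, against 6.22, 6.42 and 6.82 in normal muscles, with a difference of 0.12 ± 0.10 and an adjusted p of 0.506. The groups overlapped for both chains. The type I interferon receptor chains IFNAR1 and IFNAR2 had differences of 0.43 and 0.22, with adjusted p values of 0.259 and 0.32. Without the arrays with W transcripts these were 0.69 and 0.36, with adjusted p values of 0.192 and 0.245 by limma. IFNAR2, IFNAR1 and IFNGR2 lie close together in the gene table, separated by IL10RB alone. IL28RA, the receptor chain for the lambda interferons, was near background, with 3.50 in myopathy and 3.23 in normal muscles and an adjusted p of 0.159.

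AVD, which is neither ligand nor receptor, had levels of 5.71, 7.32 and 7.80 in myopathy muscles, against 5.11, 5.80 and 6.34 in normal muscles. Myopathy bird 2 lay among the normal birds, and the other 5 lay above every normal bird. The means were 7.09 ± 0.79 in myopathy and 5.81 ± 0.43 in normal muscles. The difference was 1.28 ± 0.32 (95% interval 0.58 to 1.98), a 2.43-fold higher level, with an adjusted p of 0.063 by limma. Without the arrays with W transcripts it was 1.52 with an adjusted p of 0.137. Without myopathy bird 2 it was 1.56 with an adjusted p of 0.0385.

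Ligands were set against receptors by counts and medians over all members of each class. At an unadjusted p under 0.05, 2 of 30 ligands were higher (IL15 and IL18) and 3 lower (CCL17, CCL19 and IL1B), while 9 of 45 receptors were higher and 3 lower (CCR9, CXCR1 and IL22RA2). In all, 18 of 77 members passed that unadjusted threshold, against 22.1% of all rows, of which 10.6% were higher and 11.5% lower. The receptors that were higher at that threshold were ACKR4, CXCR7, IFNGR2, IL17RA, IL1R1, IL1RL1, IL28RA, IL2RG and IL6ST, of which IL17RA, IL1RL1 and IL28RA were near background. Their excess over the ligands was not tested, since genes are not replicates of a bird.

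The median difference was -0.07 over the 30 ligands and 0.03 over the 45 receptors, against -0.03 over all rows. A difference above 0 was found for 12 of 30 ligands, for 29 of 45 receptors and for 43.9% of all rows. The share of rows depended on level, being 32.9% at or below the ceiling and 53.4% above it. Among members near background it was found for 5 of 21 ligands and 16 of 30 receptors. Without the arrays with W transcripts the medians were -0.06 for ligands, 0.09 for receptors and -0.03 for all rows. The sign of the ligand median depended on dim genes, since among the rows above the lower quartile of level it was 0.07 for ligands and 0.12 for receptors. Over members above background the median difference was 0.26 for 9 ligands and 0.29 for 15 receptors, against 0.02 for rows above the ceiling. Of these members 7 of 9 ligands and 13 of 15 receptors had a positive difference, against 53.4% of rows above the ceiling. A difference of at least 0.5 was found for 7 members, or 9.09%, all higher in myopathy muscle, against 3.81% of all rows. They were ACKR4, AVD, CXCL14, CXCR7, IL15, IL18 and IL1R1. All were above background, IL1R1 only through the myopathy group. They were 28% of the 25 members above background, against 6.11% of rows above the ceiling. These shares are not alike, since members were taken by either group mean and rows by their mean over all 12 arrays. By the mean over all arrays IL13RA1, CSF2RA and CCL19 stood at 3.88, 3.79 and 3.86, under the ceiling of 3.91. No member was lower by 0.5 or more, against 2.48% of all rows. Without the arrays with W transcripts CXCL14, CXCR7 and IL18 fell to 0.34, 0.28 and 0.34. CCL26, CXCL12, CSF2RA, IFNAR1 and IL1RL1 then stood at 0.63, 0.60, 0.59, 0.69 and 0.60. With all 12 arrays 73 of 77 members overlapped between the groups. ACKR4 and IL6ST lay wholly higher and IL1B and CCR9 wholly lower in myopathy muscles, against 1.06% and 1.11% of all rows in those directions.

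**Figure D4:**
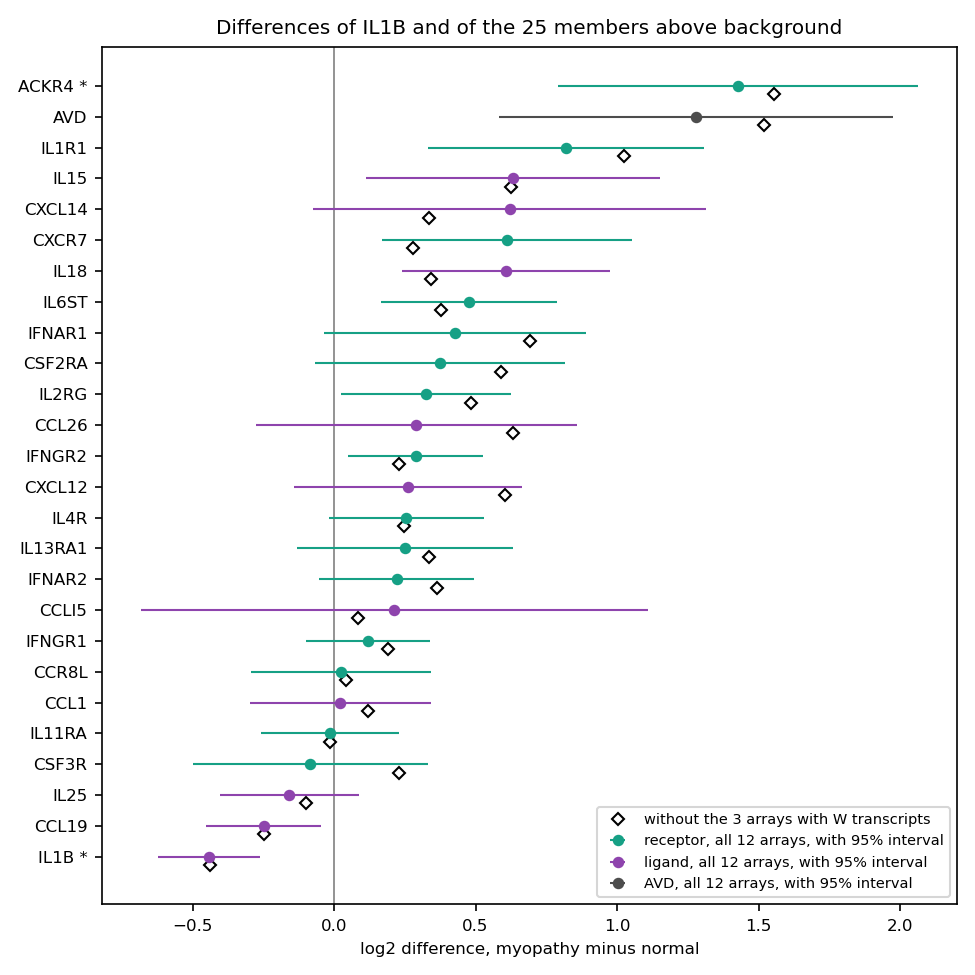
Log2 difference, myopathy minus normal (x axis), of IL1B and the 25 members above background with its 95% interval from limma, coloured by class; open diamonds give the difference without the 3 arrays with W transcripts, and asterisks mark an adjusted p under 0.05. ACKR4 at 1.43 and AVD at 1.28 have the highest values, and IL1B at -0.44 the lowest.

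Downstream of these receptors, 39 of 56 listed genes of JAK-STAT, MYD88, NF-kappa B and chemokine receptor signalling were measured. None of the 39 passed the adjusted threshold in limma's fit, and at an unadjusted p under 0.05 there were 11 higher and 0 lower, against 10.6% higher and 11.5% lower among all rows and 16.3% higher among rows above the ceiling. Their median difference was 0.12, against -0.03 for all rows and 0.02 for rows above the ceiling, and 5 of the 39 were near background. JAK1, a kinase of IL6ST and of the interferon receptors, averaged 8.23 in myopathy and 7.94 in normal muscles, a difference of 0.29 ± 0.07 with an adjusted p of 0.0652. JAK2, which serves IFNGR2 among others, averaged 5.88 in myopathy and 5.54 in normal muscles, a difference of 0.34 ± 0.09 with an adjusted p of 0.0786.

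Of 40 listed interferon response genes 33 were measured, 11 of them near background, including the antiviral genes MX1, OASL and RSAD2. The group means hid 1 bird that stood apart. Myopathy bird 4 had the highest level of all 12 birds in 23 of the 33 genes, and its mean level over the list was 5.55, against 4.42 to 4.53 in the other myopathy birds and 4.38 to 4.60 in normal birds. MX1 stood at 7.21 in that bird, against 2.58 to 3.13 in the other myopathy birds and 2.72 to 3.31 in normal birds. IFI6 stood at 7.11 in myopathy bird 4 and SAMD9L at 5.82, so that 5 of the 11 genes near background by group means (with CMPK2 and OASL) lay above the ceiling in that bird. MX1, IFI6 and SAMD9L are named after their values were seen. None of the 33 genes passed the adjusted threshold in limma's fit. At an unadjusted p under 0.05 3 were higher and 1 lower, against 10.6% and 11.5% of all rows, and the median difference was 0.20. Without myopathy bird 4 the median difference was -0.02, with 2 genes higher and 2 lower at the same threshold. CD74, the invariant chain of antigen-presenting cells and an IFNG target, averaged 9.61 in myopathy and 8.85 in normal muscles, a difference of 0.75 ± 0.26 with an adjusted p of 0.129. EIF2AK2, the kinase that senses double-stranded RNA, had a difference of 0.47 with an adjusted p of 0.166. Of 53 listed genes of neighbouring cytokine families, such as TNF and its receptors, 35 were measured and none passed the adjusted threshold. At an unadjusted p under 0.05 2 were higher and 1 lower, the median difference being -0.05. CNTFR, the ligand-binding chain for ciliary neurotrophic factor that pairs with IL6ST, averaged 5.03 in myopathy and 5.48 in normal muscles, a difference of -0.46 ± 0.15 with an adjusted p of 0.105. TNFRSF11A, the receptor RANK, had a difference of 0.29 with an adjusted p of 0.151.

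Markers of the cell types that can carry these genes were read on the same arrays. The counts of markers are at an unadjusted p under 0.05, which 10.6% of all rows passed higher and 11.5% lower, and 16.3% of rows above the ceiling passed higher. In whole muscle, more cells of a type and more RNA per cell cannot be told apart. Of 6 measured fibroblast markers all 6 were higher in myopathy muscles, and their summed linear level was 3149 to 8700 in myopathy muscles, against 930 to 3869 in normal muscles. Of 8 leukocyte markers 6 were higher, with summed levels of 382 to 714 in myopathy muscles, against 143 to 448 in normal muscles. Of 9 macrophage markers 4 were higher, with 397 to 1092 in myopathy muscles, against 202 to 595 in normal muscles. None of these markers passed the adjusted threshold. Of 11 T cell markers 0 were higher and 0 lower, 6 were near background including CD4 and LCK, and their summed level was 146 to 208 in myopathy muscles, against 146 to 174 in normal muscles. Of 7 B cell markers 1 was higher and 1 lower, and 3 of the 7 were near background. Their summed levels were 229 to 1030 in myopathy muscles, against 129 to 349 in normal muscles. Of 5 adipocyte markers 2 were higher, with 331 to 536 in myopathy muscles, against 275 to 432 in normal muscles. Endothelium had 7 markers, 0 higher and 1 lower. Red blood cells had 5 markers, 1 higher and 0 lower, 3 of the 5 being near background. Granulocytes with thrombocytes had 5 markers, 0 higher and 1 lower, 4 of them near background. Red blood cell sums were 192 to 561 in myopathy muscles, highest in bird 4, against 161 to 297 in normal muscles. The sums of the groups overlapped for these and for all the cell types above. The part of these cell types in the differences of ACKR4, IL18, IL1R1 and the other members was not tested.

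**Figure D5:**
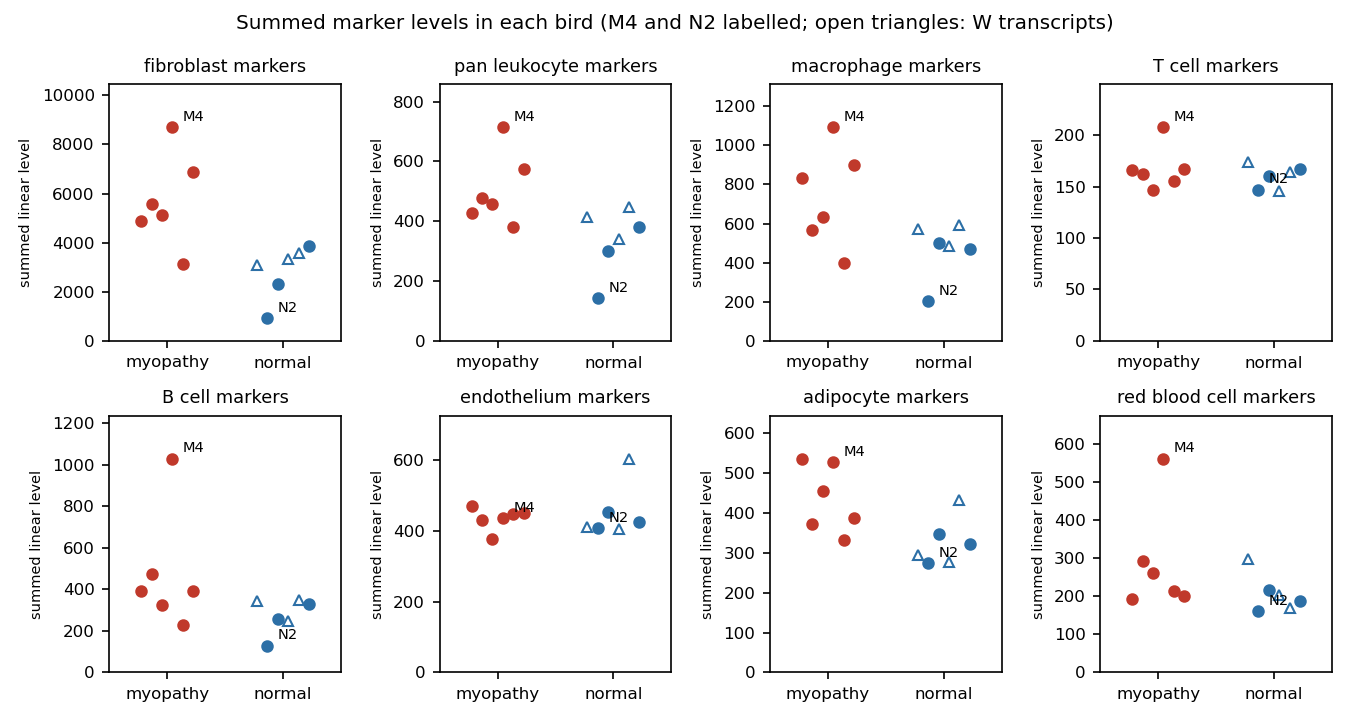
Summed linear level (y axis) of the measured markers of 8 cell types in each of 6 myopathy and 6 normal birds; M4 and N2 label myopathy bird 4 and normal bird 2, and open triangles are the normal birds with W transcripts. Fibroblast, leukocyte, macrophage, B cell and red blood cell sums are lowest in N2 and highest in M4.

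The same birds stood at the ends of the range for the cytokine genes. Normal bird 2 had the lowest level of all 12 birds in 18 of 77 members, or 23.4%, against 11.4% of all rows. Myopathy bird 4 had the highest level in 16 of 77 members, or 20.8%, against 12% of all rows. It also had the lowest level in 11 of 77, or 14.3%, against 15.5% of all rows. Normal bird 1 had the highest level in 14 of 77, or 18.2%, against 16% of all rows. Normal bird 2 and myopathy bird 4 also had the lowest and the highest sums of fibroblast, leukocyte, macrophage, B cell and red blood cell markers. The sums were 930 and 8700 for fibroblasts, 129 and 1030 for B cells and 161 and 561 for red blood cells. Myopathy bird 4 was also the bird with the high interferon response genes. Without both birds, 7 members were higher at an unadjusted p under 0.05 in limma's fit in place of 12. Neither ACKR4 nor IL1B passed the adjusted threshold, but over all rows only 1 passed it in place of 238. These birds stand at opposite ends of the range in the same data, so leaving them out tends to shrink upward differences. The matching share of all rows at the unadjusted threshold is not given for this fit.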

How the data were processed

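Total RNA (150 ng) of 12 breast muscles was hybridised to Affymetrix whole-transcript arrays, with 1 array for each bird, per the labels' protocols. Partek is named, with no role given, in the submitters' processing notes. Background correction, probe summarization, scaling and genome build: not given in the sources used here. Deposited values are read as log2 levels because they run from 1.04 to 12.9. Symbols came from the platform annotation (12300 rows with 1 symbol; 256 rows with several were not named), and a GRCg7b gene table gave chromosomes and neighbours for the 74 members with an Entrez ID.

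Groups came from the phenotype label. Each row was fitted in R 4.3.3 with limma 3.58.1 by lmFit and eBayes (residual degrees of freedom 10, prior 3.39), with p-values adjusted by Benjamini-Hochberg over all 20804 rows at a threshold of 0.05. Standard errors and unadjusted p-values are from the same fit, which was tested on simulated data. The number of arrays limits the precision. Numbers in the titles are lower for all normal birds, so their order and the phenotype cannot be told apart. Summed linear levels add up 2 to the power of each log2 level.

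Described bird by bird were members past the threshold, the 8 above background with the smallest p, the 5 above background with the largest difference, the 4 brightest ligands and receptors, AVD and IFNG, and for pathway lists the 2 genes with the smallest p. Members, lists, tests and alternatives were chosen with earlier results of these data known. Alternatives covered scaling, filters on dim rows, the variance model, array weights, arrays left out, averaged rows per gene and the ceiling. Figures used matplotlib 3.10.9.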

Additional observations from a re-analysis of the deposited data

Results flagged for a closer look

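In each group of 6 birds the highest or lowest bird was set against the next one, and it stood apart when that gap, as a share of the group's range, exceeded Dixon's limit for 6 values. Of 154 groups examined 12 passed, and chance alone passes about 1 in 20 groups of normally distributed values. The groups come from the same birds, so they are not independent. Of these 12, 5 belonged to members above background.

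Among members above background, myopathy bird 1 had the lowest IL18 level, at 5.245, with the other myopathy birds at 5.85 to 6.07. Myopathy bird 4 had the highest CXCL12 level, at 5.927, the others lying at 5.32 to 5.53, and the highest IL6ST level, at 7.314, the others lying at 6.68 to 6.79. Normal bird 2 had the lowest IL2RG level, at 3.962, with the other normal birds at 4.53 to 4.79, and the lowest CSF3R level, at 3.641, with the others at 4.48 to 4.92.

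Among members near background, IL17RA stood at 3.934 in myopathy bird 4 and 3.52 to 3.64 in the other myopathy birds. CXCR1 stood at 2.764 in myopathy bird 5 against 3.06 to 3.11, and IL1RL1 at 2.662 in the same bird against 3.03 to 3.24. In normal birds CCR9 stood at 3.639 in bird 1 against 3.22 to 3.35, IL1R2 at 2.497 in bird 1 against 1.998 to 2.17, IL12A at 3.369 in bird 3 against 3.11 to 3.19, and IL4I1 at 2.373 in bird 4 against 2.76 to 2.91.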

How the results depend on the processing

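No paired analysis was possible because the bird numbers follow the order of deposition and the titles of the groups share no replicate number. The count of all rows past the threshold, 238, was 384 among rows above the lower quartile of level, 455 among rows above the median, 3 without the arrays with W transcripts, 1 without normal bird 2 and myopathy bird 4, and 1 to 588 when single arrays were left out. Members past it higher, 1 in the fit reported, numbered 2 among rows above the median (ACKR4 and AVD), 0 without the arrays with W transcripts, 0 without normal bird 2 and myopathy bird 4, and 0 to 3 when single arrays were left out. Members past it lower, also 1, numbered 0 under each of those 3 settings (IL1B lies below the median) and 0 to 1 when single arrays were left out. The count of members at an unadjusted p under 0.05 was 12 higher and 6 lower. It was 7 higher without normal bird 2 and myopathy bird 4. It was 1 lower without the arrays with W transcripts and 0 lower among rows above the median. Single arrays moved the counts within 9 to 14 and 5 to 7. The ligand median of -0.07 was -0.0229 after quantile normalization, 0.0656 above the lower quartile and 0.28 above the median, and the receptor median of 0.03 was 0.12 and 0.29 under those filters, which leave out dim genes. Members near background, 52, numbered 32 with the ceiling at the highest HINTW level of arrays without W transcripts, 2.99, 35 with the 75th percentile and 55 with the 95th. ACKR4 stayed past the threshold in 11 of 21 alternatives and IL1B in 10 of 20. The median difference of the interferon response genes, 0.20, was -0.0239 without myopathy bird 4, -0.0376 without that bird and normal bird 2, and above 0 under the other alternatives. Reversals were CCLI5 at -0.0525 without normal bird 2 (from -0.0525 to 0.41 over all single arrays) and CCL26 at -0.0503 without normal bird 2 and myopathy bird 4. The cause of these changes was not tested. Fits that left arrays out also had fewer birds. Of 311 values for members named bird by bird 285 kept direction and side of the threshold.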
